A study of Mus musculus with 48 samples.

Results

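Kitl, Cxcl12 and Kctd14 were followed as 3 genes that fetal gonadal somatic cells express and that cells induced from embryonic stem cells may lack. The members were chosen by symbol because they were high in somatic cells of E12.5 gonads and low in the induced cells, so that contrast is described below without a test. All 3 were found among 22173 genes in the count table of developmental stages, among 13682 genes in the FPKM table of induced cells and, by Ensembl ID, among 32285 genes of a 10x Genomics single-cell library. Kitl and Cxcl12 encode secreted or membrane-bound ligands, and Kctd14 encodes no ligand.

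The mice were C57BL/6. Gonadal somatic cells (GSCs) came from female gonads of 3 embryonic stages (E12.5, then E13.5, then E16.5) and from ovaries 6 weeks after birth (P6w), with 2 libraries per stage. A second set of somatic cells from E12.5 female gonads, called E12.5_GC, had 3 libraries, and the study removed germ cells by magnetic sorting for SSEA1. Female embryonic stem cells, carrying a β-actin-GFP transgene or none, were induced for 24 h or 48 h without compounds (Con), with vitamin C (Vc), with AM580, or with vitamin C and AM580 together (V580), with 2 libraries per condition. V580 cells were also profiled on days 4, 6, 8 and 10 (V580_D4 to V580_D10), with 3 bulk libraries per day, and on day 6 in 1 single-cell sample. AM580 is an agonist of the retinoic acid receptor alpha, and vitamin C is a cofactor of dioxygenases that include DNA and histone demethylases. The labels do not say whether replicates were separate litters or cultures, so p-values measure only the spread between these libraries.

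Kitl (Kit ligand, also called stem cell factor) binds the receptor tyrosine kinase Kit on germ cells and supports their survival, migration and, in the ovary, oocyte growth. Its membrane-bound form is cut from the cell surface by proteases, and splicing decides whether the main cleavage site is present. Cxcl12 is a chemokine that attracts cells carrying the receptor Cxcr4, among them primordial germ cells on their way to the gonad, and it is also bound by the scavenging receptor Ackr3. Kctd14 belongs to the Kctd family, proteins with a potassium channel tetramerisation (BTB) domain, several of which are adaptors of cullin ubiquitin ligases.

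In the GENCODE vM21 annotation of GRCm38, Kitl (ENSMUSG00000019966.18) lies on the plus strand at chr10:100015630-100100416, Cxcl12 (ENSMUSG00000061353.11) on the plus strand at chr6:117168535-117181367, and Kctd14 (ENSMUSG00000051727.14) on the plus strand at chr7:97451323-97459557. Each is a protein-coding gene, with a summed exon length of 5911 bases for Kitl, 8176 bases for Cxcl12 and 2568 bases for Kctd14. The counts and FPKM were summed over each gene and do not separate the splice forms of Kitl. The sequence below is shown because it is what the forms differ by: exon 6, 84 bases at chr10:100080857-100080940 on the plus strand, is part of Kitl-202 (819 coding bases) and absent from Kitl-201 (735 coding bases). It is printed in capitals throughout as annotated exon.
Kitl exon 6: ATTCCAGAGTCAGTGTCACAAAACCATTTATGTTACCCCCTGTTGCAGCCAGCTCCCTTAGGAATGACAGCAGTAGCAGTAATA

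Start-site sequences from RefSeq (GRCm38.p6), running from 250 bases before to 50 bases after the start, were held for 2 of the 3 genes, Kitl and Cxcl12. They are shown because the induced cells were given a retinoid receptor agonist, and capitals mark GC boxes (GGGCGG) and TATA motifs (TATAAA) found on either strand. The windows are chr10:100015571-100015870 for Kitl and chr6:117168285-117168584 for Cxcl12, both on the plus strand.
Kitl: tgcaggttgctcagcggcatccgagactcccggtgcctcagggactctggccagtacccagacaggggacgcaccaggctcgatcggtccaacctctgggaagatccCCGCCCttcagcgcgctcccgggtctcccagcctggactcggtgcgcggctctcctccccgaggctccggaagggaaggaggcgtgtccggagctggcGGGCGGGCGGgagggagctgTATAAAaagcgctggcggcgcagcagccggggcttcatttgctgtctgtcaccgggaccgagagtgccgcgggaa
Cxcl12: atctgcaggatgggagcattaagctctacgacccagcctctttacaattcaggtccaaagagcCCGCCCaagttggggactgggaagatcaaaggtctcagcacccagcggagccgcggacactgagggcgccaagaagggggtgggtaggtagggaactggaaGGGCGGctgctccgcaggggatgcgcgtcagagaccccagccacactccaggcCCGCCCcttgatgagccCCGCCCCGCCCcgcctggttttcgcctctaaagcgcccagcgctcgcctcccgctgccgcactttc

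The GC box occurred 3 times in the Kitl window and 5 times in the Cxcl12 window, counting overlapping matches, and 35.7% of 32851 promoter windows held at least 1. The TATA motif occurred once for Kitl and not for Cxcl12, against 13.6% of all windows. The retinoid receptor half-site AGGTCA was absent from both windows and present in 16.3% of all, and the GATA motifs AGATAA and TGATAA, in 11.2% and 9.05% of all windows, were absent from both. These are matches of letters in a short window and say nothing of binding.

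The stage libraries held 12694769 to 22259044 counts each. Before the results, the E12.5 label needs a remark. These 2 libraries are labelled female, yet the Y-linked genes Ddx3y, Eif2s3y, Kdm5d and Uty, chosen after their values were seen, summed to 170 and 205 counts in them, against 4 to 5 counts at E13.5 and 0 to 1 at E16.5 and P6w. Of 3 Sertoli cell genes, Amh (159 to 231 counts) and Dhh (110 to 130 counts) were higher there than at E13.5 (8 to 15 and 8 to 12 counts) but lower than at P6w (817 to 1923 and 233 to 256 counts), and Sox9 (714 to 753 counts) was highest at E16.5 (2105 to 2874 counts). These are raw counts, and Amh is also one of the adult granulosa cell markers used below. The libraries labelled E12.5 stand apart in the Y-linked genes, and for the members comparisons without E12.5 are given beside those with it. By the labels, the E12.5 and E13.5 libraries and E16.5 replicate 1 share sequencing lane 5, while E16.5 replicate 2 and both P6w libraries share lane 1, so lane and stage cannot be told apart for P6w against E12.5. The 3 E12.5_GC libraries differed more among themselves (root mean square difference 0.289 to 0.433 on the log2(FPKM + 1) scale, pair by pair) than the V580_D6 libraries (0.0891 to 0.101), and the sum of 3 erythroid markers in them ran from 1038 to 4435 FPKM.

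Per length, Kctd14 was by far the most abundant of the 3 transcripts at every stage. At E12.5 its level was 562 ± 2.40 RPKM (reads scaled to gene length and library size, mean ± SD, n = 2), against 57.4 ± 0.806 for Kitl and 5.39 ± 1.19 for Cxcl12. Ranked by RPKM among 21781 genes at E12.5, Kctd14 came 63rd, Kitl 913th and Cxcl12 6493rd. The order of the 3 genes was the same in E13.5 cells (680 ± 8.27, 34.4 ± 0.559 and 2.41 ± 0.168 RPKM), in E16.5 cells (377 ± 75.9, 58.1 ± 2.26 and 5.35 ± 0.211 RPKM) and in P6w cells (118 ± 2.48, 9.78 ± 0.168 and 3.99 ± 0.488 RPKM).

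Kitl was low at E13.5 between higher levels at E12.5 and E16.5, and lowest in the adult ovary. Its normalised level (CPM, counts scaled to a common library size) was 343 and 336 in the E12.5 libraries, 201.1 and 205.8 in the E13.5 libraries, 334 and 353 in the E16.5 libraries, and 57.1 and 58.5 in the P6w libraries. The E12.5 and E16.5 libraries overlapped, and every other pair of stages was separated. From E12.5 to E13.5 Kitl fell by 0.74 on the log2 scale (SE 0.107, edgeR quasi-likelihood test, adjusted p = 7.43e-05), a 1.67-fold lower level. Kitl was one of 2 members, with Cxcl12, called in this comparison, in which 45.9% of 16398 tested genes were called in either direction and 22.1% were lower. From E13.5 to E16.5 it rose by 0.76 (SE 0.107, adjusted p = 3.55e-05), and between E12.5 and E16.5 the log2 difference was 0.02 (SE 0.107, adjusted p = 0.92).

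In the adult ovary Kitl had the largest difference of the 3 genes. It was 5.87-fold lower at P6w than at E12.5 (log2 fold change -2.55, SE 0.115, adjusted p = 9.22e-11) and 5.94-fold lower than at E16.5 (-2.57, SE 0.115, adjusted p = 8.54e-11), a comparison without the E12.5 libraries. All 3 members were lower at P6w than at E12.5, where 27.5% of tested genes were called lower and 52.9% in either direction, and all 3 were lower than at E16.5, where 29.8% were lower and 56.1% were called.

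Cxcl12, like Kitl, was lowest at E13.5 among the fetal stages. Its E12.5 libraries held 37.2 and 51.0 CPM, those of E13.5 held 18.7 and 20.7 CPM, those of E16.5 held 42.55 and 44.98 CPM, and those of P6w held 29.8 and 35.5 CPM. The E13.5 libraries lay below all others, and the E16.5 libraries lay between the E12.5 pair. Cxcl12 fell by 1.16 from E12.5 to E13.5 (SE 0.172, adjusted p = 8.42e-05) and rose by 1.15 from E13.5 to E16.5 (SE 0.172, adjusted p = 5.47e-05), and the difference between E12.5 and E16.5 was -0.01 (SE 0.166, adjusted p = 0.969). In the comparison of E16.5 with E13.5, where all 3 members were called, 54.1% of tested genes were called, with 28.7% of all tested genes higher and 25.4% lower.

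At P6w Cxcl12 was called lower only narrowly. The log2 fold change was -0.43 against E12.5 (SE 0.17, adjusted p = 0.0435) and -0.42 against E16.5 (SE 0.171, adjusted p = 0.0462). The first was lost without E12.5 replicate 2 (-0.20, adjusted p = 0.485), without P6w replicate 1 (-0.32, adjusted p = 0.255) and without P6w replicate 2 (-0.57, adjusted p = 0.0549). The second was lost without E16.5 replicate 2 (adjusted p = 0.0736), without either P6w replicate (adjusted p = 0.253 and 0.0577), with DESeq2 size factors (adjusted p = 0.061) and the DESeq2 Wald test (adjusted p = 0.07), on the 4 libraries alone (adjusted p = 0.0578) and with a length term (-0.20, adjusted p = 0.342).

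Kctd14 differed from the 2 ligands in its timing. It stood at 1439 and 1447 CPM in E12.5 cells, 1761 and 1731 CPM in E13.5 cells, 831 and 1106 CPM in E16.5 cells, and 308 and 299 CPM in P6w cells. E13.5 libraries were the highest, P6w libraries the lowest, and no pair of stages overlapped, although the E16.5 libraries lay far apart. The difference of 0.28 between E13.5 and E12.5 was not called (SE 0.131, adjusted p = 0.101). From E13.5 to E16.5 Kctd14 fell by 0.85 (SE 0.132, adjusted p = 7.9e-05), and from E16.5 to P6w it fell by 1.68 (SE 0.136, adjusted p = 6.09e-08). It was also lower at E16.5 than at E12.5, by 0.58 (SE 0.132, adjusted p = 0.00316), where it was the only member called and 37.6% of tested genes were called, 17.1% lower. That value was -0.39 without E16.5 replicate 1 and -0.80 without E16.5 replicate 2, and the E16.5 replicates differed more than any other pair (chi-square per degree of freedom 37.9, against 6.02 to 6.93). Against E12.5, Kctd14 at P6w was 4.76-fold lower (-2.25, SE 0.138, adjusted p = 2.92e-09).

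**Figure D1:**
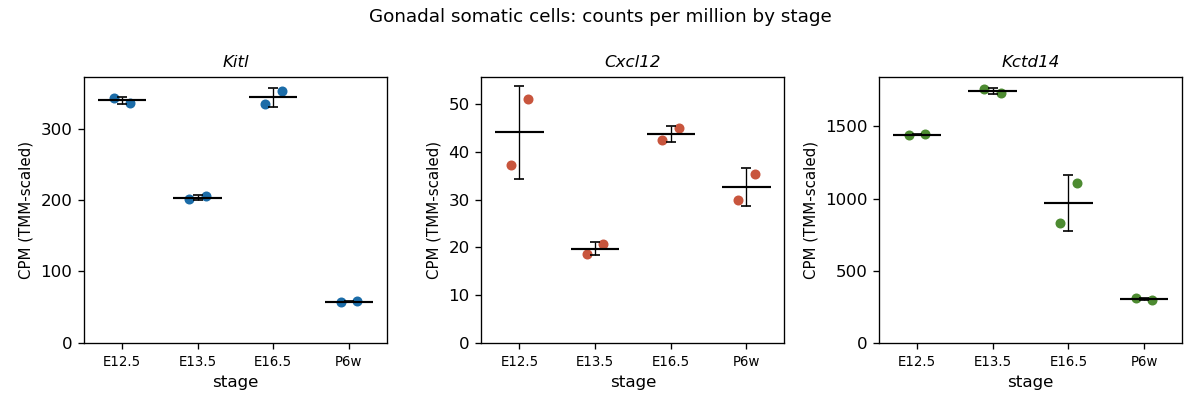
Normalised CPM (linear axes from 0) of Kitl, Cxcl12 and Kctd14 in each of the 8 stage libraries of gonadal somatic cells, with the mean (line) and SD (bar) of 2 libraries. Kitl and Cxcl12 dip at E13.5, while Kctd14 is highest there at 1761 and 1731 CPM. Kitl (57.1 and 58.5 CPM) and Kctd14 (308 and 299 CPM) are lowest at P6w.

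Other measures moved with these stage differences, and their part in them was not tested. Between E12.5 and E13.5 the log2 fold change fell with gene length across genes (Spearman correlation -0.495 over 16141 genes with a length), and genes of about the length of Kitl, Cxcl12 and Kctd14 had median fold changes of -0.23, -0.48 and 0.36. With a length term in the fit, the E13.5 against E12.5 values were -0.50 for Kitl (adjusted p = 0.00246), -0.73 for Cxcl12 (adjusted p = 0.00504) and -0.01 for Kctd14 (adjusted p = 0.954). From E13.5 to E16.5 the trend with length ran the other way (Spearman correlation 0.335), and the values with a length term were 0.45 for Kitl (adjusted p = 0.00252), 0.69 for Cxcl12 (adjusted p = 0.00407) and -0.76 for Kctd14 (adjusted p = 8.98e-05). Here and below, CPM of marker and listed genes in the stages are scaled to library totals only. They lack the normalisation used for the members' CPM and for all fold changes, so they need not match the folds. Of 7 endothelial markers 6 were lower at E13.5, their sum running from 270 to 280 CPM at E12.5 and from 101 to 110.5 CPM at E13.5, while 5 of 6 erythroid markers were higher. At E16.5, 6 of 9 stromal markers were higher than at E13.5. At P6w all 7 adult granulosa cell markers were higher than at E12.5, summing to 35030 to 35330 CPM against 148 to 149 CPM, and all 7 endothelial and 7 of 9 stromal markers were lower. Of all tested genes, 23.8% were higher and 22.1% lower at E13.5 against E12.5. At E16.5 against E13.5, 28.7% were higher, and at P6w against E12.5, 25.4% were higher and 27.5% lower. In bulk samples, fewer cells of a type and less RNA per cell cannot be told apart.

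The receptors and proteases of the Kitl and Cxcl12 axes were a list of 6 genes: Kit, Cxcr4, Ackr3, the protease Dpp4, which trims Cxcl12, and the sheddase Adam17 and matrix protease Mmp9, which release soluble Kitl. By library totals, Kit was at 6.49 ± 0.996 CPM in E12.5 cells (n = 2 at each stage), 2.67 ± 0.226 in E13.5 cells, 11.9 ± 0.237 in E16.5 cells and 5.45 ± 0.357 in P6w cells. It fell by 0.95 from E12.5 to E13.5 (adjusted p = 0.0061) and rose by 1.89 from E13.5 to E16.5, and in each of these comparisons it was the only gene of the 6 called. Germ cells carry Kit, and 6 of 7 germ cell markers were higher at E13.5 than at E12.5, their sum running from 38.0 to 41.2 CPM at E13.5 and from 140.5 to 171 CPM at E16.5. Mast cells carry Kit too, and their 6 markers summed to 1.18 to 1.22 CPM in E12.5 cells, 13.7 to 22.1 CPM in E13.5 cells, 540 to 577 CPM in E16.5 cells and 3.62 to 3.98 CPM in P6w cells, with all 4 tested called higher from E13.5 to E16.5. The part of either cell type in the Kit level was not tested. At P6w against E16.5, Kit fell by 0.96 and Cxcr4 by 2.07, from a level of 1.69 ± 0.914 CPM, while Ackr3 rose by 1.33 and Adam17 by 0.64.

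Other somatic signals to germ cells, a list of 15 genes of which 14 were tested, showed 2 higher and 6 lower at E13.5 against E12.5 (median log2 fold change -0.14, against 0.025 over all tested genes). The 2 higher were Rspo1, an enhancer of Wnt signalling (0.61), and Aldh1a1, which makes retinoic acid (0.84). Among the lower were Cyp26b1, which degrades retinoic acid (-2.96, from 15.4 ± 1.93 to 1.55 ± 0.408 CPM by library totals), Fgf9 (-1.95), Wnt5a (-1.31), Jag1 (-0.83) and Bmp2 (-0.79). Because the E12.5 libraries held Y-linked transcripts, stage and male cells in those libraries cannot be told apart for these differences. Gdnf was at 0 counts in both E13.5 libraries, and no fold is given for it. At P6w, 4 were higher and 9 lower than at E12.5 (median -1.93, against -0.041), with Fst, which binds activin, higher by 1.53 and Wnt4, needed for ovary formation, lower by 3.36. Without the E12.5 libraries, 7 of the 14 were higher and 4 lower at E16.5 against E13.5 (median 0.39, against 0.057), with Jag1 higher by 2.46, Wnt5a by 1.35, Bmp2 by 1.33 and Fgf9 by 1.05, while Cyp26b1 differed by -0.05 (adjusted p = 0.913). At P6w against E16.5, 3 were higher and 9 lower (median -1.20, against -0.039), where Fst rose by 1.74 and Wnt4 fell by 2.86. Of 18 tested relatives of Kctd14, 1 was higher and 6 were lower at E13.5 (median -0.25), and 2 were higher and 3 lower at P6w (median -0.08, against -2.25 for Kctd14 itself). Without E12.5, 7 relatives were higher and 3 lower at E16.5 against E13.5, and 3 were higher and 5 lower at P6w against E16.5. Of all tested genes, 23.8% were higher and 22.1% lower at E13.5 against E12.5, and 25.4% and 27.5% at P6w against E12.5. The shares were 28.7% and 25.4% at E16.5 against E13.5, and 26.3% and 29.8% at P6w against E16.5. Neither list was tested as a set.

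In the FPKM table, all 3 genes were higher in every E12.5_GC library than in any V580 library, which is how they were chosen. Kitl was at 124, 94.65 and 139 FPKM in the E12.5_GC libraries, Cxcl12 at 10.0, 8.92 and 7.23 FPKM, and Kctd14 at 294, 340 and 297 FPKM. On V580 day 6 Kitl was at 2.41, 2.18 and 2.36 FPKM, Cxcl12 at 1.014, 0.726 and 0.892 FPKM, and Kctd14 at 0.461, 0.438 and 0.392 FPKM. The ratio of means of E12.5_GC over V580_D6 was 51.5 for Kitl, 9.93 for Cxcl12 and 721 for Kctd14. Ordered from the lowest difference upwards among 11512 genes, Kctd14 ranked 2nd, Kitl 7th and Cxcl12 184th. Low ranks follow from how the members were chosen and are no support for a lack of them.

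The ratios shrank unequally over the V580 days. For Kitl they were 55.7 on day 4, 37.1 on day 8 and 18.2 on day 10. For Cxcl12 the ratio on day 4 was 9.72, on day 8 it was 2.88 and on day 10 it was 2.24. For Kctd14 the ratio was still 621 on day 8 and 583 on day 10. The ratio for Kctd14 on day 4, 2217, rests on few reads: with the fragment numbers implied by the smallest FPKM steps, the 3 day 4 libraries held 2, 8 and 16 Kctd14 fragments, and the E12.5_GC libraries held 20992, 20465 and 14917. Ranked by FPKM among 13682 genes, Kctd14 was 88th in E12.5_GC and 11450th in V580_D10, Kitl 280th and 6210th, and Cxcl12 5103rd and 8006th. Of the somatic markers used to check the labels, Nr5a1 was at 78.2 ± 14.8 FPKM in E12.5_GC (n = 3) and at 0 to 0.0828 FPKM in every V580 library, while Wt1 was at 72.5 ± 11.7 and, on V580 day 6, 45.1 ± 2.26 FPKM.

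**Figure D2:**
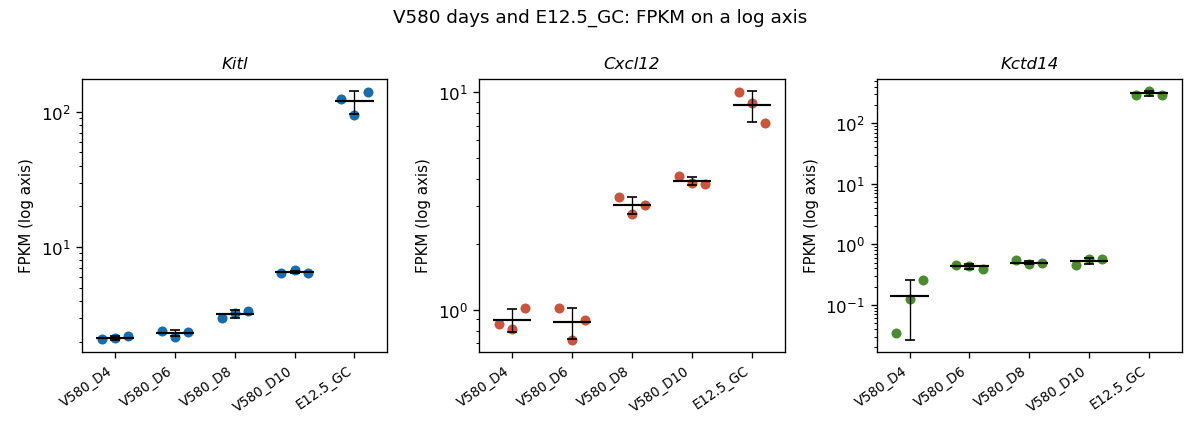
FPKM on log axes of Kitl, Cxcl12 and Kctd14 in the V580 libraries of days 4, 6, 8 and 10 and in E12.5_GC, with the mean (line) and SD (bar) of 3 libraries. E12.5_GC lies above every V580 library for each gene, by 18.2 times for Kitl, 2.24 times for Cxcl12 and 583 times for Kctd14 on day 10 (ratios of means).

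Within the V580 course, Cxcl12 rose between days 6 and 8. Its FPKM were 0.854, 0.816 and 1.02 on day 4, 1.014, 0.726 and 0.892 on day 6, 3.295, 2.75 and 3.03 on day 8, and 4.09, 3.83 and 3.76 on day 10. The day 4 and day 6 libraries overlapped, and all day 8 libraries lay above both. On the log2(FPKM + 1) scale, which understates changes of low genes, the day 8 minus day 6 difference was 1.10 (SE 0.0971, limma, adjusted p = 7.45e-07, 95% interval 0.89 to 1.31). Cxcl12 was the only member called at an adjusted p below 0.05 and at least 2-fold, and 2.55% of 11512 tested genes were called, 2.29% higher. The difference of 0.28 from day 8 to day 10 (adjusted p = 0.0356) was below 2-fold, and that from day 4 to day 6 was -0.02 (adjusted p = 0.911, interval -0.22 to 0.19).

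Kitl was 2.09, 2.12 and 2.22 FPKM on day 4, 2.99, 3.245 and 3.402 on day 8, and 6.43, 6.73 and 6.49 on day 10. Day 4 and day 6 overlapped, and days 8 and 10 lay above them and apart from each other. The day 10 minus day 8 difference was 0.84 (SE 0.103, adjusted p = 2.92e-05, interval 0.62 to 1.06), past the p threshold and below 2-fold on this scale, in a comparison that called 1.29% of tested genes and none of the members. SE and interval pool the spread of all 15 libraries, the more variable E12.5_GC among them. With only the groups compared in the fit, the SE was 0.0541. The day 8 minus day 6 difference was 0.34 (adjusted p = 0.0154) and the day 6 minus day 4 difference 0.08 (adjusted p = 0.569, interval -0.14 to 0.30).

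Kctd14 stayed under 1 FPKM throughout the V580 course. It entered the day tests only through the E12.5_GC libraries, the group it was chosen for, so its day differences are given without p. It was at 0.0342, 0.126 and 0.260 FPKM on day 4, 0.461, 0.438 and 0.392 on day 6, 0.540, 0.473 and 0.486 on day 8, and 0.455, 0.564 and 0.580 on day 10. Every day 6 library lay above every day 4 library, and the day 10 libraries overlapped those of days 6 and 8. The day 6 minus day 4 difference was 0.33 with a pseudocount of 1 and 1.26 with a pseudocount of 0.1. That comparison called 5.08% of genes and neither Kitl nor Cxcl12. From day 6 to day 8 and from day 8 to day 10 the differences were 0.07 and 0.03.

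Markers of other cell types moved over the same days, and their part in the ligands' levels was not tested. The sum of 8 stromal markers ran from 164 to 169 FPKM on day 6, from 366.5 to 464 on day 8 and from 827 to 1069 on day 10. From day 6 to day 8, 4 of 8 tested were called higher, against 2.29% of all tested genes. The sum of 6 endothelial markers ran from 23.5 to 24.8 FPKM on day 6 and from 55.5 to 57.5 on day 8. Gonadal supporting cell markers summed to 92.9 to 99.5 FPKM on day 6 and 128 to 130.5 on day 10, below their sum of 586 to 680 in E12.5_GC.

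Of the receptors and proteases, Cxcr4 was the only gene called in the V580 days. It rose by 1.40 from day 4 to day 6 (adjusted p = 0.000913), from 0.530 ± 0.169 to 3.02 ± 0.176 FPKM, and was at 0.697 ± 0.0727 on day 10. Ackr3 was at 32.5 ± 0.398 FPKM on day 6 and at 3.25 ± 1.42 FPKM in E12.5_GC. Among other somatic signals, 4 of 14 tested rose from day 4 to day 6: Wnt4 (3.05), Igf1 (2.90), Aldh1a2, which makes retinoic acid (2.62), and Wnt5a (1.63), and Wnt5a alone rose from day 6 to day 8 (1.86). Over all tested genes, 3.41% were called higher from day 4 to day 6 and 2.29% from day 6 to day 8. Fst, by contrast with its 58.6 ± 8.01 FPKM in E12.5_GC, was at 2.17 ± 0.303 on day 4 and 2.69 ± 0.385 on day 10. None of 17 tested Kctd relatives was called in any of the 3 day comparisons by limma, and their summed FPKM stayed between 142 and 176 in all groups. In these comparisons 5.08%, 2.55% and 1.29% of all tested genes were called.

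Early in induction, AM580 was accompanied by a low Cxcl12 level at 48 h. Cxcl12 was at 1.52 and 1.72 FPKM in Con_24h and at 4.11 and 4.18 FPKM in Con_48h. With vitamin C alone it reached 4.13 and 3.91 FPKM at 48 h, whereas AM580 libraries were at 1.215 and 1.15 FPKM and V580 libraries at 0.893 and 0.777 FPKM. At 24 h the level was 1.405 and 1.43 FPKM with vitamin C, 1.94 and 1.715 FPKM with AM580, and 1.502 and 1.41 FPKM with V580. The AM580 and V580 libraries of 48 h lay below every other library of these treatments, and at 24 h the treated libraries lay on both sides of the control.

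At 48 h Cxcl12 fell by 1.24 with AM580 (SE 0.0656, adjusted p = 9.32e-10, 95% interval -1.38 to -1.10) and by 1.49 with V580 (SE 0.0656, adjusted p = 1.07e-10, interval -1.63 to -1.35). Both comparisons use the same 2 control libraries. AM580 called 3.23% of 10644 tested genes (0.902% lower) and V580 3.18% (1.34% lower). Vitamin C alone differed from the control by -0.04 (adjusted p = 0.782, interval -0.18 to 0.11), in a comparison that called 0.0470% of genes. V580 minus AM580 was -0.25 (SE 0.0656, adjusted p = 0.0152, interval -0.39 to -0.11), below 2-fold, in a comparison that called 0.263% of genes.

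At 24 h no treatment was called for Cxcl12. The differences from the control were -0.12 with vitamin C (adjusted p = 0.276), 0.11 with AM580 (adjusted p = 0.329) and -0.09 with V580 (adjusted p = 0.318), in comparisons that called 0.0846%, 0.404% and 0.695% of genes. V580 minus AM580 was -0.20 (adjusted p = 0.0536, interval -0.34 to -0.06), where 0.0658% of genes were called. Without compounds, Cxcl12 differed between 48 h and 24 h by 0.97 (SE 0.0656, adjusted p = 5.84e-09), just below 2-fold, in a comparison that called 7.72% of genes. It was called with a pseudocount of 0.1 (1.303), with quantile normalization, just past 2-fold, and without Con_24h replicate 2 (1.03). The effect of AM580 at 48 h minus that at 24 h was -1.35 (SE 0.0927, adjusted p = 7.83e-08), and the same difference for V580 was -1.39 (SE 0.0927, adjusted p = 5.4e-08), beside 1.90% and 1.83% of genes called in these comparisons.

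Kitl and Kctd14 were below the expression filter in these 16 libraries and were not tested there. Kitl ranged from 0.345 FPKM in a Vc_48h library to 0.930 FPKM in an AM580_48h library. In a fit without the filter, Kitl differed from the control by -0.29 in V580_48h (adjusted p = 0.0124), below 2-fold, as did all its other differences. Kctd14 ranged from 0 to 0.164 FPKM, which corresponds to 0 to 8 fragments per library, and 1 library each of Vc_24h, V580_24h and Con_48h was at 0.

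**Figure D3:**
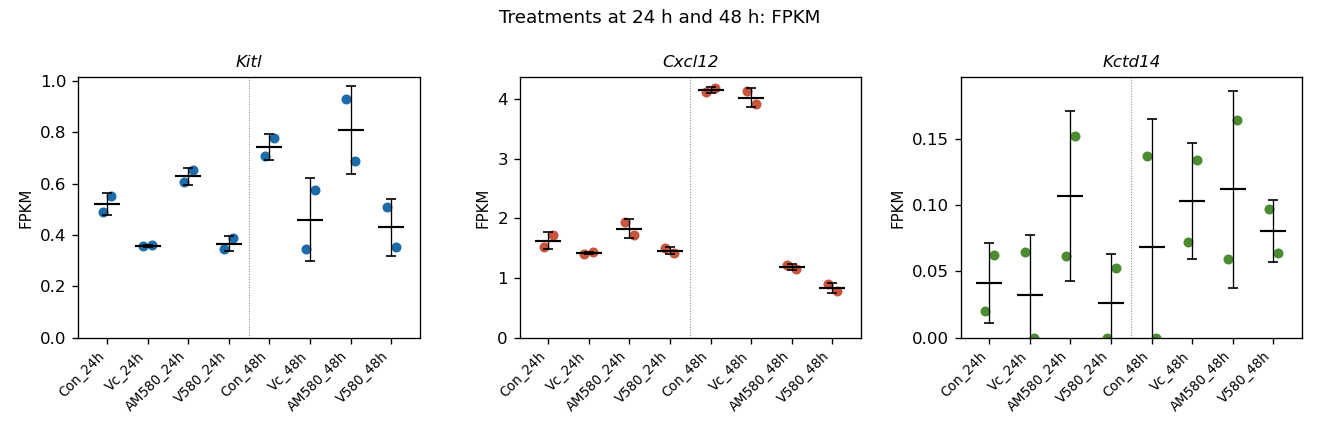
FPKM (linear axes from 0) of Kitl, Cxcl12 and Kctd14 in the 2 libraries of each treatment at 24 h and 48 h, with means (lines) and SD (bars). Cxcl12 stands at 4.11 and 4.18 FPKM in Con_48h and at 0.777 to 1.215 FPKM in the AM580 and V580 libraries of 48 h, and Kctd14 does not exceed 0.164 FPKM.

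Mmp9 and Ackr3 rose with AM580, and Fst fell. Mmp9 was at 1.63 ± 0.217 FPKM in Con_48h, 17.5 ± 0.282 in AM580_48h and 11.02 ± 0.245 in V580_48h, rises of 2.82 (adjusted p = 5.68e-14) and 2.19 (adjusted p = 9.35e-13) on the log2(FPKM + 1) scale. It had already risen at 24 h, by 1.82 with AM580 and 1.66 with V580. Ackr3 rose by 1.20 with AM580 at 48 h (adjusted p = 3.96e-09), from 0.936 ± 0.0792 to 3.45 ± 0.383 FPKM. Fst fell by 1.43 with AM580 (adjusted p = 4.56e-10) and by 1.80 with V580 (adjusted p = 3.33e-11), and was the only one of 9 tested somatic signals called in either comparison. The sum of 8 stromal markers, 28.2 to 28.8 FPKM in Con_48h, was 29.1 to 31.7 FPKM in AM580_48h and 33.9 to 34.3 FPKM in V580_48h. Of 5 tested stromal markers, 1 was called higher and 0 lower with AM580, and 0 were called higher and 1 lower with V580. The lower one was Dcn (-1.09 with V580), which was at -0.88 with AM580, below 2-fold. The part of stromal cells in the Cxcl12 level was not tested.

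In single V580 day 6 cells, transcripts of all 3 genes were sparse. Of 15412 barcodes, none shared, 15315 cells were kept, with a median of 9281 UMIs. Kitl was seen in 1294 cells (8.45%, 95% exact binomial interval 8.01 to 8.90) with 1934 UMIs, or 11.9 CPM (UMIs scaled to the total). Cxcl12 was seen in 413 cells (2.70%, interval 2.45 to 2.97) and Kctd14 in 230 cells (1.502%, interval 1.32 to 1.71), at 4.29 and 1.62 CPM. With each cell thinned to 2000 UMIs, leaving out 3800 shallower cells, the shares were 1.94%, 0.608% and 0.304%. The library is 1 sample, so no test was made, and intervals cover counting error only. No cluster is known to lack these genes, so the part of free RNA in the low shares was not tested.

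The 12 clusters differed in their levels of both ligands, and only in the interstitial-like cluster 3 was Cxcl12 above Kitl in CPM. Kitl was highest in cluster 8, an unnamed group of 660 cells led by Rhox9, Sct and Rhox6, at 34.9 CPM (exact Poisson interval 30.5 to 39.8) and in 16.7% of its cells, although the median depth there was only 2992.5 UMIs. Next came the unnamed clusters 11 (25 cells, 22.2 CPM, interval 6.05 to 56.9), 4 (1314 cells, 17.0 CPM) and 5 (1052 cells, 13.1 CPM). Cluster 4 had a median of 15.42% mitochondrial UMIs. In the mesothelial-like cluster 1 (3125 cells) Kitl was at 12.8 CPM, in the interstitial-like cluster 3 (1482 cells) at 8.94 CPM and in the extraembryonic endoderm-like cluster 7 (928 cells) at 8.14 CPM. Cxcl12 was highest in the interstitial-like cluster, at 13.65 CPM (12.2 to 15.3) and in 8.97% of cells, followed by cluster 5, led by Wfdc2, Stra8 and Cxcl15 and unnamed, at 7.01 CPM. It was at 2.67 CPM in the mesothelial-like and 0.823 CPM in the extraembryonic endoderm-like cluster 7.

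The Kctd14 intervals of its highest clusters overlapped. Its highest levels were 2.61 CPM (1.20 to 4.96) in cluster 6, led by Cited1 and S100g, 2.60 CPM (2.12 to 3.15) in the mesothelial-like cluster and 2.12 CPM (1.57 to 2.80) in the extraembryonic endoderm-like cluster 7. In cluster 2, led by the cell cycle genes Aspm, Mki67 and Cenpf, it was at 0.954 CPM (0.661 to 1.33), below the interval of the mesothelial-like cluster. Of 15315 cells, 1294 held Kitl, 413 Cxcl12 and 230 Kctd14, and 1845 held any of them. Among these, 54 held Kitl and Cxcl12, 26 Kitl and Kctd14, 13 Cxcl12 and Kctd14, and 1 held all 3. Whether the transcripts met more or less often than their single shares imply was not tested. Foxl2, a granulosa cell transcription factor, was seen in 249 cells, of which 40 held Kitl, 9 Cxcl12 and 5 Kctd14. Over all cells the shares were 8.45%, 2.70% and 1.502%. No cluster could be named from the granulosa or endothelial markers.

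**Figure D4:**
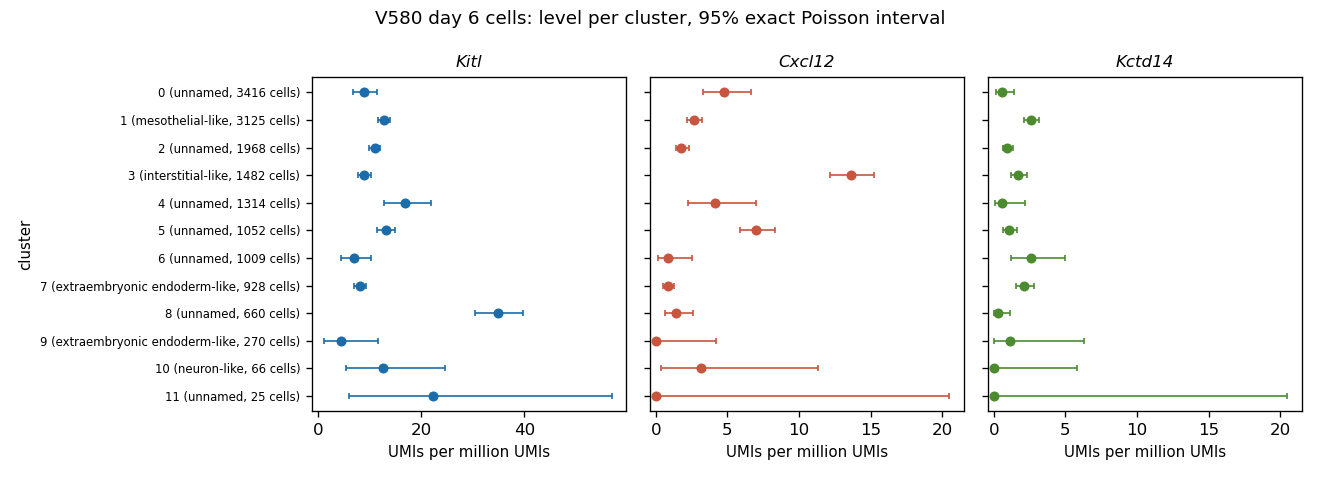
CPM of UMIs (linear axes) of Kitl, Cxcl12 and Kctd14 in each of the 12 clusters of V580 day 6 cells, as points with 95% exact Poisson intervals, from 1 sample. Kitl is highest in cluster 8 (34.9 CPM) and Cxcl12 in the interstitial-like cluster 3 (13.65 CPM), whereas the Kctd14 intervals of clusters 1, 6 and 7 overlap.

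The genes most like each member were sought by correlating group means of log2(FPKM + 1). Over all 13 groups, which E12.5_GC dominates, Kitl was closest to Adamts16 (Pearson r = 0.9967) and Sh2d4a (0.9929), followed by Myo5b, Tmem206 and Cpq, and Kctd14 to Aplnr (0.9975), Drp2, Ptpro, Oit3 and Gimap6. The members were chosen for high levels in E12.5_GC, so a high r over 13 groups follows from that choice and carries no weight. Over the 12 groups of induced cells, Kitl was closest to Rasl11b (0.9894), Itm2c, Tsku, Bmp2 (0.9857) and Adamts15, and Kctd14 to Cd200 (0.9866), Bambi, Gxylt2, Tgfbr3 and Igf1 (0.9841). Cxcl12 was closest to Sytl1 (0.9469) over 12 groups, ahead of Mzt2, Aldh1b1, Itgb5 and Tmem167, and to Mzt2 (0.9044), Itgb5, D2hgdh, Ldhb and Aldh1b1 over 13. Among the members, Kitl and Kctd14 had r = 0.921 over the 12 groups, and Cxcl12 had r = 0.26 with either. The Kctd14 means over these 12 groups ran only from 0.0261 (V580_24h) to 0.533 FPKM (V580_D10), so its correlations there rest on values near the floor. These are descriptions of group means that share libraries and are given without p.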

How the data were processed

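Bulk RNA-seq was deposited as 2 tables and single-cell RNA-seq as a matrix. The stage table holds raw counts per gene that the authors made by aligning reads to mm10 with HISAT2 and counting with featureCounts. The second table holds FPKM values that the authors deposited without counts, and RSEM is among the tools named in the submitters' processing notes; versions of the alignment and counting tools are not given in the sources used here. The single-cell table holds UMI counts that the authors made with Cell Ranger count on mm10, without a statement on doublets, and none were removed here. Columns of the FPKM table were matched to samples by the sample titles, and 10 columns of per-sample values that matched no sample were not used. Aggregates with primordial germ cells were not analysed here.

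Stage counts were fitted in 1 model over 8 libraries with edgeR 4.0.16 (quasi-likelihood test, TMM, low-count filter of edgeR, 16398 genes tested), and a gene was called at a Benjamini-Hochberg adjusted p below 0.05. FPKM were tested with limma 3.58.1 on log2(FPKM + 1), over 15 libraries for the V580 days (with E12.5_GC) and 16 for the treatments, keeping genes of at least 1 FPKM in 3 or 2 libraries, and a call also needed a 2-fold difference. A count test was not run on FPKM. Dividing FPKM by their smallest steps gave the fragments per library, and 96.9% to 98.6% of low values were whole fragments within 0.1. Barcodes under 200 genes or over 40% mitochondrial UMIs were dropped and the others clustered with scanpy 1.11.5 (leidenalg 0.10.2, resolution 0.5). Exact intervals came from scipy 1.17.1. Alternatives included DESeq2 1.42.0, other filters and pseudocounts, and leaving out each library. The scripts were tested on simulated data.

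The members and the gene lists were chosen with earlier results of these data known. The members are described in every comparison. Of the receptor and somatic signal lists only some called genes are named with values, so the named ones are not a full list. For each member the 5 genes with the highest correlation of group means, among those of at least 5 FPKM in a group, are named.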

Additional observations from a re-analysis of the deposited data

Results flagged for a closer look

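The effect of AM580 on Cxcl12 differed between the times. The AM580 minus control difference at 48 h minus that at 24 h was -1.345 on the log2(FPKM + 1) scale (limma, adjusted p = 7.83e-08), and the same value for V580 was -1.394 (adjusted p = 5.4e-08). The level without compounds moved as well, from 1.62 ± 0.14 FPKM at 24 h to 4.14 ± 0.0474 FPKM at 48 h (n = 2 each), and both effects rest on these control libraries. At 48 h AM580 was at 1.18 ± 0.0467 FPKM and V580 at 0.835 ± 0.0821 FPKM, and at 24 h they were at 1.83 ± 0.158 and 1.46 ± 0.0636 FPKM. In a fit without the expression filter, the same differences were -0.05 (AM580, adjusted p = 0.797) and -0.13 (V580, adjusted p = 0.432) for Kitl, and -0.03 (adjusted p = 0.864) and 0.04 (adjusted p = 0.805) for Kctd14.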

How the results depend on the processing

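No result for the members reversed. Of 165 alternatives for 15 stage results 145 left the call as it was, 19 ended it and 1 gained it; of 104 for 9 day results 97 left it, 1 ended it and 6 gained it; and of 118 for 11 treatment results 113 left it and 5 gained it. The P6w calls for Cxcl12 were lost most often, in 8 alternatives against E16.5 and in 7 against E12.5. Against E16.5 the value was -0.398 with DESeq2 size factors (adjusted p = 0.061) and the DESeq2 Wald test (adjusted p = 0.07). Against E12.5 it was -0.419 with DESeq2 size factors (adjusted p = 0.0521) and with the DESeq2 Wald test (adjusted p = 0.058), -0.236 with a length term (adjusted p = 0.267), and -0.649 to -0.195 when a library was left out. With a 2-fold threshold, Kitl at E13.5 (-0.739), Kctd14 at E16.5 (-0.576) and Cxcl12 at P6w (-0.434), each against E12.5, were no longer called, nor were Kitl (0.756) and Kctd14 (-0.851) at E16.5 against E13.5 and Cxcl12 at P6w against E16.5 (-0.423). Kctd14 at E13.5 was called when only the 2 groups compared were fitted (0.235, adjusted p = 0.00159). With a pseudocount of 0.1, Kctd14 from day 4 to 6 (1.255) and Kitl from day 8 to 10 (1.008) were called. Kctd14 entered the day fits only through E12.5_GC, so its calls there carry no weight. Quantile normalization took Cxcl12 from day 6 to 8 to 0.992, below 2-fold. Without the fold threshold, Kctd14 from day 4 to 6 (0.332), Kitl from day 6 to 8 (0.343) and from day 8 to 10 (0.843), and Cxcl12 from day 8 to 10 (0.284) were called. Of the 5 gained in the treatments, 4 were Cxcl12 at 48 h against 24 h without compounds (1.303 with a pseudocount of 0.1, just past 2-fold with quantile normalization, 1.027 without Con_24h replicate 2, and 0.972 without the fold threshold), and 1 was V580 minus AM580 at 48 h without the fold threshold (-0.251). The cause was not tested. Of cells with at least 1000 genes 10.64% held Kitl, 3.367% Cxcl12 and 1.965% Kctd14, and without the 5% of cells with the most UMIs the shares of Kitl and Kctd14 were 7.588% and 1.258%.

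Counts of genes called moved by over 1.5 times with a 2-fold threshold in the stages (2785, 2752 and 4924 against E12.5, in place of 7530, 6160 and 8673, and 4285 and 5339 in place of 8865 and 9206 without E12.5), with a pseudocount of 0.1 (1054, 599 and 346 in the day comparisons, in place of 585, 293 and 149, and 664 and 670 for AM580 and V580 at 48 h, in place of 344 and 339) and without a fold threshold (5167, 4737 and 3969 in the days, 6063 and 6078 at 48 h). Same-numbered replicates did not deviate together in the stages (0 of 12 pairs over a correlation of 0.1). In the days 9 of 30 pairs were over 0.1 (range -0.431 to 0.386, median 0.0282). In the treatments 14 of 56 were (range -0.424 to 0.209, median 0.016). Stages and treatments have 2 libraries per group, whose deviations mirror each other, so their pairs repeat the same values and are not separate. The labels do not say what the replicate number means. With a replicate block in the fit, Cxcl12 from day 6 to 8 was 1.10 and at 48 h -1.24 with AM580, none of the 15, 9 and 11 member results changed its call, and counts of genes called moved by at most 1.02 times. Depth limits Kctd14 in induced cells most, at 0 to 8 fragments per treatment library.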

Other observations

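In the single V580 day 6 cells, receptors of the ligands were seen as well. Kit was seen in 7.89% of cells (15.2 CPM), Ackr3 in 16.47% (23.8 CPM) and Cxcr4 in 0.424% (0.442 CPM), so transcripts of Ackr3 were counted in more cells than those of Cxcl12 itself (2.70%). The proteases Dpp4 and Adam17 were seen in 19.2% and 19.95% of cells and Mmp9 in 0.353%. Of other somatic signals, Wnt4 was seen in 54.1% of cells (247 CPM), Aldh1a2 in 28.2%, Fst in 12.66% and Gdnf in 0.4375%. These shares come from 1 sample and follow depth as well as level.

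Among relatives of Kctd14, chosen here after their values were seen, Kctd13 rose by 2.69, Kctd12 by 1.18 and Kctd12b by 0.85 from E12.5 to E16.5 (edgeR), while Kctd14 fell by 0.58 in the same comparison. Of 18 relatives tested there, 3 were higher and 2 lower, against 20.5% and 17.1% of all tested genes. Without the E12.5 libraries, from E13.5 to E16.5, they rose by 2.095 (Kctd13), 1.96 (Kctd12) and 1.44 (Kctd12b).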
